A study of Mus musculus with 2 samples.

Results

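NADPH oxidase subunits and nitric oxide synthases are represented here by 9 genes, *Cybb*, *Cyba*, *Ncf1*, *Ncf4*, *Rac2*, *Nox4*, *Nos1*, *Nos2* and *Nos3*, chosen by name as the enzymes that make superoxide, hydrogen peroxide and nitric oxide. Every probe set whose annotation named 1 of these genes and no other was taken, which gave 18 probe sets out of 45101 on the array and 9 genes out of 18193. They were measured on 2 Affymetrix arrays hybridised with RNA of cultured mouse neonatal ventricular cardiomyocytes (mNVCM), which were isolated from hearts of C57BL6/J mice at 2 days after birth. On the Dox array, cells without pre-incubation were exposed to 1 μM doxorubicin (Dox), an anthracycline that damages DNA through type II topoisomerases. On the hAFS-CMHypo + Dox array, cells were pre-incubated for 3 h with medium conditioned by human amniotic fluid-derived stem cells under hypoxia, then exposed to the same dose of Dox. The labels give 6 h of Dox for hAFS-CMHypo + Dox and 21 h for Dox, whereas the methods of the study give 6 h for both, so pre-incubation and time in Dox cannot be told apart in these values. The digested heart also yields non-muscle cells, and no step that would remove them from the cultures before extraction is described in the sources used here.

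With 1 array per condition there was no replicate, so no difference below carries a p-value and each describes these 2 arrays. Levels are log2 values made by the authors with RMA, and a log2 ratio is the level with hAFS-CMHypo + Dox minus that with Dox. As the only error these arrays hold, log2 ratios at different probe sets of 1 gene had a pooled SD of 0.21, over 5299 genes with several probe sets at or above the median of all values (5.10). This SD was 0.26 for probe sets with a mean level between 3.81 and 5.10, 0.25 between 5.10 and 7.52, and 0.16 above that. It contains no variation between cultures. Genes and probe sets called higher or lower beyond the SD below were held to the pooled value at all levels.

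NADPH oxidases pass electrons from NADPH across a membrane to oxygen. The phagocyte enzyme rests on the catalytic subunit gp91phox (*Cybb*), its membrane partner p22phox (*Cyba*), the cytosolic organiser p47phox (*Ncf1*), the modulator p40phox (*Ncf4*) and a Rac GTPase, of which *Rac2* is the form of blood cells. *Nox4* codes for another catalytic subunit, which also needs p22phox but no cytosolic subunit, releases mainly hydrogen peroxide, and is known from cardiomyocytes, fibroblasts and vascular cells. Nitric oxide synthases (NOS) make nitric oxide from arginine with tetrahydrobiopterin as a cofactor: *Nos1* codes for the neuronal form, which is also found in cardiomyocytes, *Nos2* for the form induced by cytokines, and *Nos3* for the endothelial form. Dox can take up electrons from the reductase domains of such enzymes and return them to oxygen as superoxide, and both families have been studied in its cardiotoxicity.

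The sequences upstream of transcription start are shown for 4 of these genes, both catalytic oxidase subunits, the organiser and the neuronal synthase. They were chosen because the values below run upwards at the probe set of highest mean of the first 3 and downwards at every probe set of the last. For the organiser, *Ncf1*, that is 1 of 3 probe sets, and the others showed almost no difference. Most of the values of the synthase, *Nos1*, lay within the SD between probe sets. Windows were at hand for 5 of the 9 genes in the RefSeq promoter table on GRCm38.p6, and each is given as the 250 bases before the start, 5′ to 3′ on the strand of the gene. They lie at chr7:87246399-87246648 (+) for *Nox4*, chrX:9469325-9469574 (-) for *Cybb*, chr5:134229626-134229875 (-) for *Ncf1* and chr5:117866589-117866838 (+) for *Nos1*. Capitals mark matches, on either strand, to the NF-κB consensus, TGANTCA (wider than the AP-1 motif, which has C or G in the middle), TTCNNNGAA (the STAT motif), ACGTG (the core of the hypoxia response element) and GAGGAA (a core bound by PU.1).
*Nox4*: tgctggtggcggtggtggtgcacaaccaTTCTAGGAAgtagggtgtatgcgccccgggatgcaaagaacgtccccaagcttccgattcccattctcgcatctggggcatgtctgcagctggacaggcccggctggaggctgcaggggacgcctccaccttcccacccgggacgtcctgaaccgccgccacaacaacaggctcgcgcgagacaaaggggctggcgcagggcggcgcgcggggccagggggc
*Cybb*: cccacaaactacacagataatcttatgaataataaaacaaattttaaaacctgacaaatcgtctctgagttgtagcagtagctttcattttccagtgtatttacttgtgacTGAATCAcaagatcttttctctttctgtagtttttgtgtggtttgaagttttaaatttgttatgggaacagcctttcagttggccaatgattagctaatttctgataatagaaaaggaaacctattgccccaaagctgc
*Ncf1*: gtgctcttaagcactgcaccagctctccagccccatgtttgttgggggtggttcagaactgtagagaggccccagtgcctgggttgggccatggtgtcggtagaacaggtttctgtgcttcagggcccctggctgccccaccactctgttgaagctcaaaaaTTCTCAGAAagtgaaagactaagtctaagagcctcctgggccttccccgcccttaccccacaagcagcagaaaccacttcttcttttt
*Nos1*: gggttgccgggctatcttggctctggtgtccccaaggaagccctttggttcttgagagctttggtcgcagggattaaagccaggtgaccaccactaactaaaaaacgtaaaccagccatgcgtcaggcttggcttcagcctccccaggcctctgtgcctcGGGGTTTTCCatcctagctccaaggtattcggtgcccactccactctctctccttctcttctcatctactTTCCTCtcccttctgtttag
The windows of *Nox4* and *Ncf1* each held TTCNNNGAA, found in 7.02% of all 32841 windows of the table. *Cybb* held TGANTCA, found in 6.75%, with A in the middle and so outside the AP-1 motif. *Nos1* held the NF-κB consensus, found in 7.25%, and GAGGAA on the opposite strand, found in 23.3%. ACGTG, found in 16.6%, matched in none of these windows, and the window of *Cyba* held none of the 5 motifs. The matches describe these letters only, and neither binding nor transcription from these starts was measured.

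None of the 9 genes was higher or lower by 2-fold, the threshold of the study, which 0.506% of all genes passed upwards and 0.214% downwards. *Nox4* had the highest ratio of the 9, close to 1.7-fold, and the phagocyte oxidase genes *Ncf4*, *Ncf1* and *Cybb* followed at about 1.3-fold to 1.4-fold. *Rac2* and *Nos2* were lower by about 1.2-fold, and *Cyba*, *Nos1* and *Nos3* lay within the SD between probe sets. By that SD, 4 of the 9 genes were higher and 2 were lower, beside 17.5% and 15.5% of all genes. Of the 2 lower, *Nos2* (-0.244) lay inside the SD of 0.246 for its own range of levels. RNA came from whole cultures, so fewer cells of a type and less RNA per cell cannot be told apart.

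**Figure D1:**
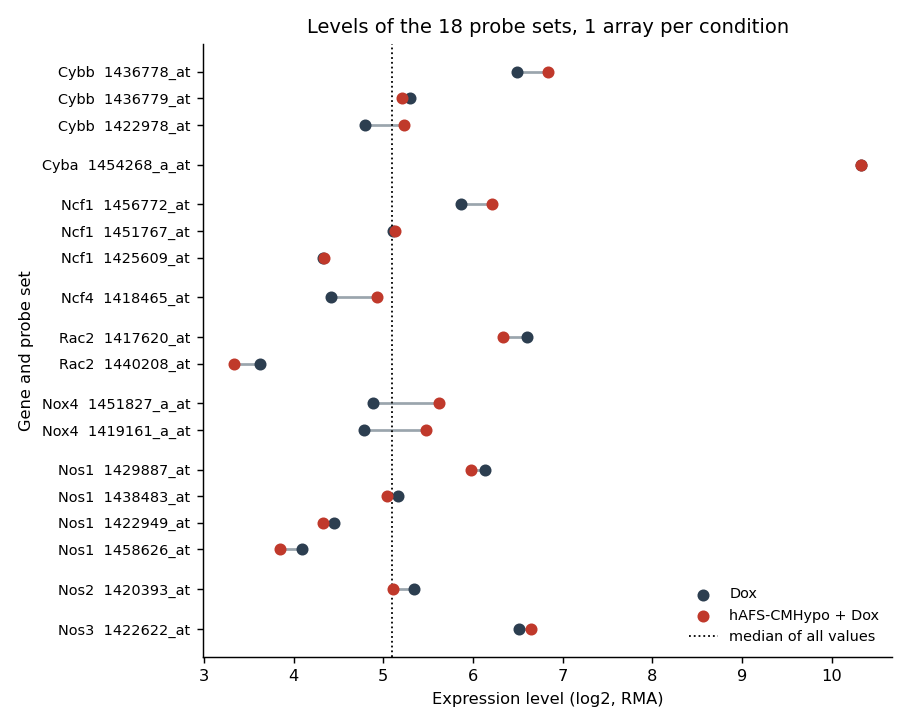
Expression level (log2, RMA) of the 18 probe sets of the 9 genes with dark points for Dox and red points for hAFS-CMHypo + Dox, 1 array per condition, with the median of all values (5.10) as a dotted line. The widest gaps are those of the 2 *Nox4* probe sets, where red lies to the right of dark on either side of the median line; both points of *Cyba* coincide near 10.3.

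*Nox4* was read by a pair of probe sets that agreed closely. At 1451827_a_at its level was 5.62 with hAFS-CMHypo + Dox and 4.89 with Dox, a log2 ratio of 0.74 (1.67-fold). At 1419161_a_at the levels were 5.47 and 4.79, a log2 ratio of 0.68 (1.61-fold). Both Dox levels lay below the median of all values and both hAFS-CMHypo + Dox levels above it. The mean ratio was 0.71 ± 0.037 (SD over the 2 probe sets, which share the arrays and are not replicates). Of all genes, 1.25% had a ratio at least as high as that of *Nox4*. It was also the 1 member past 1.5-fold, a threshold that 2.32% of all genes passed upwards.

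*Cybb*, the catalytic subunit of the phagocyte enzyme, gave a smaller difference with less agreement. At 1436778_at, where its signal was highest, the level was 6.84 with hAFS-CMHypo + Dox and 6.49 with Dox, a log2 ratio of 0.34 (1.27-fold). At 1422978_at the levels were 5.23 and 4.79, a ratio of 0.43. At 1436779_at they were 5.21 and 5.29, a ratio of -0.082. The first 2 lay beyond the SD between probe sets and the last within it, so the direction for *Cybb* rests on which probe sets are read. Their mean was 0.23 ± 0.27 (SD over 3 probe sets), an SD larger than the mean.

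*Cyba*, the membrane partner that both catalytic subunits need, had a log2 ratio of -0.0066, the one nearest to 0 among the 9 genes. Its level was 10.32 with hAFS-CMHypo + Dox and 10.33 with Dox at 1454268_a_at, its only probe set, in the range of signal where the SD between probe sets was lowest. The oxidase genes therefore did not share 1 ratio, with *Nox4* at 0.74 and *Cyba* at -0.0066.

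The cytosolic subunits differed among themselves. *Ncf4* had a level of 4.93 with hAFS-CMHypo + Dox and 4.42 with Dox at its only probe set, a log2 ratio of 0.51 (1.43-fold), and 3.4% of all genes had a ratio at least as high. Both of its levels lay below the median of all values, where the SD between probe sets was 0.26. For *Ncf1*, the organiser that carries the other cytosolic subunits to the membrane, 1456772_at had levels of 6.21 and 5.87, a ratio of 0.35. Its other probe sets showed almost no difference, with levels of 5.13 and 5.10 at 1451767_at (ratio 0.025) and of 4.34 and 4.33 at 1425609_at (ratio 0.012). The ratio of *Ncf1* thus came from 1 of 3 probe sets, and their mean was 0.13 ± 0.19 (SD over 3 probe sets).

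*Rac2*, the GTPase that activates the phagocyte enzyme, lay in the opposite direction from *Ncf4*. At 1417620_at its level was 6.34 with hAFS-CMHypo + Dox and 6.60 with Dox, a log2 ratio of -0.27, or 1.20-fold lower. At 1440208_at the levels were 3.34 and 3.62, a ratio of -0.28, both under the 25th percentile of the values of both arrays (3.80) and not shown to be above background. The mean was -0.27 ± 0.012 (SD over 2 probe sets), and 10.9% of all genes had a ratio at least as low as that of *Rac2*.

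**Figure D2:**
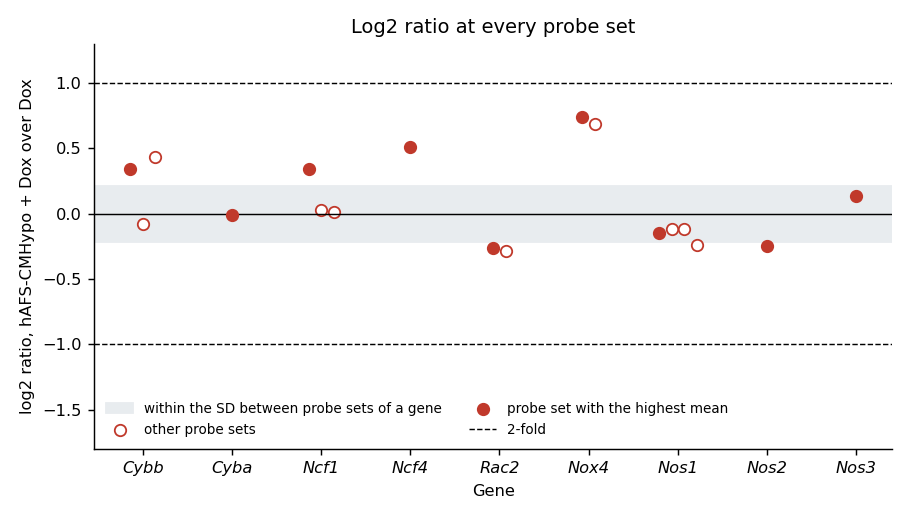
Log2 ratio of hAFS-CMHypo + Dox over Dox at every probe set of the 9 genes, with filled points for the probe set of highest mean level, open points for the others, a grey band for the SD of 0.21 between probe sets of a gene and dashed lines at 2-fold. Both points of *Nox4* lie near 0.7, those of *Cybb* and *Ncf1* spread from the band to above it, and those of *Nos1* lie below 0, inside the band or just under it.

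The NOS genes had small ratios, and none of them was higher beyond the SD between probe sets. All 4 probe sets of *Nos1* were lower on the hAFS-CMHypo + Dox array. The levels were 5.98 with hAFS-CMHypo + Dox and 6.13 with Dox at 1429887_at (ratio -0.15), 5.05 and 5.16 at 1438483_at (-0.11), 4.33 and 4.45 at 1422949_at (-0.12), and 3.85 and 4.09 at 1458626_at (-0.24). Their mean was -0.16 ± 0.06 (SD over 4 probe sets), smaller than the SD between probe sets of a gene. Of the 4, 1 lay beyond that SD, but inside the SD of 0.26 for its own range of levels. *Nos2*, the synthase that cytokines induce, was not higher after pre-incubation on these arrays, with levels of 5.10 for hAFS-CMHypo + Dox and 5.35 for Dox at its only probe set (ratio -0.24, 1.18-fold lower). Its levels lay close to the median of all values, and 12.6% of all genes had a ratio at least as low. *Nos3* had levels of 6.65 and 6.51 at its only probe set, a ratio of 0.13, and 27.3% of all genes had a ratio at least as high.

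As a group, the 9 genes had a median log2 ratio of 0.13, beside 0.0058 over all genes, when each gene took its probe set of highest mean. Over the 18 probe sets the median was 0.0025, with 9 above 0 and 9 below. Beyond the SD between probe sets, 6 of the 18 were higher and 4 lower, beside 16.4% and 15.8% of all probe sets. Of the 4 lower, those of *Nos2* and *Nos1* lay inside the SD for their own range of levels. *Cybb* and *Ncf1* had larger ratios at the probe set of highest mean than on average over their probe sets, and *Nos1* counts once as a gene and 4 times as probe sets. Of the 18 probe sets, 9 reached the median of all values on both arrays, 13 on the higher array, and 17 reached the 25th percentile on the higher array.

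**Figure D3:**
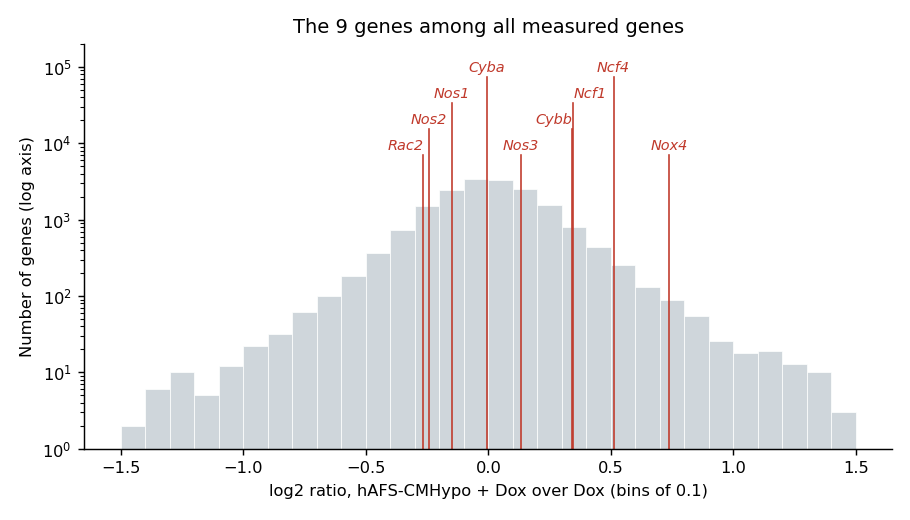
Number of genes (log axis) by log2 ratio of hAFS-CMHypo + Dox over Dox in bins of 0.1, for all 18193 genes at the probe set of highest mean, with the 9 genes as red lines; 4 genes lie below -1.5 and 29 at or above 1.5, outside the plot. *Nox4* and *Ncf4* lie on the right flank, with *Cybb* and *Ncf1* nearer to the centre, and *Cyba*, *Nos1* and *Nos3* lie near the centre. *Nos2* and *Rac2* lie left of it, in a bin of 1504 genes, beside 3397 in the tallest.

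Other genes of the oxidases gave no common direction. Of 17 listed, 13 had a probe set of their own, and none reached 2-fold. Beyond the SD between probe sets, 3 of the 13 were higher and 2 lower (median 0.033), beside 17.5% and 15.5% of all genes. *Nox1*, *Nox3*, *Noxa1* and *Duox2* were not analysed here. *Sh3pxd2a* and *Sh3pxd2b*, scaffold proteins related to p47phox, had ratios of 0.55 (-0.077 at the other probe set) and 0.40 (0.18 at the other). *Rac3*, a GTPase related to *Rac2*, had -0.38. *Hvcn1*, the proton channel that balances the charge which the phagocyte oxidase moves, had -0.32.

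On the side of the synthases, *Gch1*, the first and rate-limiting enzyme of tetrahydrobiopterin synthesis, had a log2 ratio of 0.96 (1.95-fold), with levels of 8.52 and 7.56, and of 0.89 at its other probe set. The next enzyme of that pathway, *Pts*, had -0.51 (-0.12 at its other probe set), and *Qdpr*, which recycles the cofactor, had -0.21 (-0.39 at its other probe set). Of 6 cofactor genes measured, 1 was higher and 2 were lower beyond the SD between probe sets (median -0.088). Of all genes, 17.5% were higher and 15.5% lower beyond it, to be read beside each count in this paragraph. Of 7 proteins that bind NOS, 1 was higher and none lower (median -0.013). It was *Cav3*, the muscle caveolin, with levels of 12.05 and 11.27 (ratio 0.78). Of 9 genes that handle arginine or its methylated forms, 4 were higher and 1 lower (median 0.13). Among the 4, *Ass1* (0.60) and *Arg2* (0.32), named after their values were seen, lay under the median of all values on both arrays. The levels of *Ass1*, 3.66 and 3.06, were also under the 25th percentile. *Slc7a2*, an arginine transporter, had 0.91 (as low as 0.073 among 4 probe sets). *Ddah1* and *Ddah2*, which clear the NOS inhibitor dimethylarginine, had 0.28 (0.00051 to 0.38 over 5 probe sets) and -0.24.

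Downstream of nitric oxide, 3 of 9 genes of cGMP signalling were higher and 2 lower beyond the SD between probe sets (median -0.023). The shares of all genes were 17.5% and 15.5%. *Gucy1a1*, a subunit of the soluble guanylate cyclase that nitric oxide activates, was lower at each of its 3 probe sets, with levels of 8.34 and 9.14 (ratio -0.80) at the one with the highest mean and ratios down to -1.18. The phosphodiesterases that degrade cGMP differed in sign, with 0.94 for *Pde5a* (0.18 at the lowest of 3 probe sets) and -0.98 for *Pde1c* (up to 0.043 among 6 probe sets). *Prkg2*, a cGMP-dependent kinase, had 0.38 (up to 1.12 among 3 probe sets). No gene of these lists reached 2-fold at its probe set of highest mean.

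**Figure D4:**
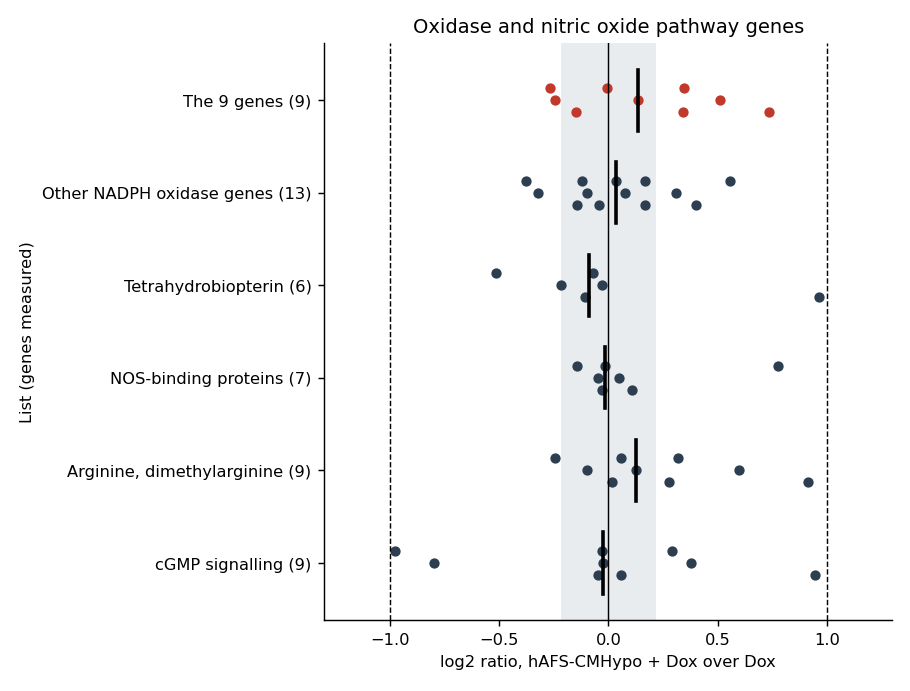
Log2 ratio of hAFS-CMHypo + Dox over Dox for the 9 genes (red) and for the measured genes of 5 related lists (dark), 1 point per gene, with a black bar at each median, a grey band for the SD of 0.21 and dashed lines at 2-fold. The medians all lie inside the band, between -0.088 and 0.13, and the outermost points are *Gch1*, *Pde5a*, *Slc7a2* and *Cav3* on the right and *Pde1c* and *Gucy1a1* on the left.

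Several of the 9 genes are also known from cells other than cardiomyocytes, whose markers were read on the same arrays. Cardiomyocyte markers were abundant, with levels of 9.78 to 14.99 with hAFS-CMHypo + Dox and 10.05 to 15.05 with Dox. All 11 had ratios below 0 (median -0.14), as had 8869 of all 18193 genes. Beyond the pooled SD were 3 of them, beside 15.5% of all genes. These were *Pln* (-0.57), *Myh7* (-0.27) and *Ttn* (-0.23, up to 0.007 among 6 probe sets). *Ryr2* (-0.21) and *Tnni3* (-0.17, named after its value was seen) lay within it but beyond the 0.16 of their own range. The summed level of the 11 (log2 of the sum of linear values) was 17.47 with hAFS-CMHypo + Dox and 17.59 with Dox. Beside *Cybb*, *Ncf1*, *Ncf4* and *Rac2*, 19 macrophage markers ranged from 3.15 to 11.80 with hAFS-CMHypo + Dox and from 3.13 to 11.91 with Dox, and 15 of them reached the median of all values on each array. Of these 19, 7 were higher and 2 lower beyond the pooled SD (median 0.064), beside 17.5% and 15.5% of all genes. The ratio was 0.80 for *Cd14*, a co-receptor for bacterial lipopolysaccharide, and 0.68 for the Fc receptor *Fcgr3*. It was 0.48 for *Ptprc*, the leukocyte antigen CD45 (-0.088 at its other probe set), and 0.45 for the mannose receptor *Mrc1*. The 2 lower ones, named after their values were seen, were *Itgam*, an integrin subunit of leukocytes, with -0.58 at levels under the median of all values, and *Fcer1g*, a signalling chain of Fc receptors, with -0.32, and 7 of the 19 had ratios below 0. The summed level of the 19 was 12.73 and 12.74. *Lyz2*, named after its values were seen, had the highest level, 11.80 and 11.91, and weighed most in that sum. Of 6 neutrophil markers, 3 reached the median of all values on each array, 1 was higher and 1 lower (median -0.027), and the summed level was 8.57 and 8.55. The higher one was *Elane*, with 0.37. The lower one, named after its value was seen, was *Cxcr2*, with -0.24 at levels of 3.92 and 4.16. It lay under the median of all values and inside the SD of 0.26 for its own range. The part of these cells in the ratios of the oxidase genes was not tested.

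Beside *Nos3*, 11 endothelial markers had a median ratio of 0.083 and a summed level of 11.48 with hAFS-CMHypo + Dox and 11.41 with Dox. Beyond the pooled SD, 1 was higher and 1 lower, beside 17.5% and 15.5% of all genes here and for the lists below. The lower one was *Tek*, the angiopoietin receptor, with -0.22. The higher one, named after its value was seen, was *Vwf*, von Willebrand factor, with 0.24 at levels under the median of all values. Both lay inside the SD for their own range of levels, 0.25 and 0.26. *Esam*, a junction protein, had 0.20, within the pooled SD but beyond the 0.16 of its own range. Beside *Nox4*, 9 fibroblast markers had a median of -0.024 and a summed level of 14.02 on both arrays, with 3 higher and 3 lower beyond the pooled SD. They differed in sign, with 1.10 for *Lum*, which the study had picked from these arrays, and 0.79 for *Pdgfra* (-0.05 at the lowest of 3 probe sets), against -1.03 for *Tcf21* (0.18 at its other probe set) and -0.43 for *Postn*. In that sum, abundant genes also differed in sign. *Dcn*, named after its values were seen, had 12.05 and 11.64 (ratio 0.41, and 0.12 at its other probe set), and *Postn* had 11.26 and 11.69. Of 5 smooth muscle markers, 1 was higher and 1 lower (median 0.075). The higher one was *Cnn1* (0.32) and the lower one *Mylk* (-0.35, up to 0.32 among 3 probe sets). The summed level of the 5 was 14.77 and 14.73. *Acta2*, at 14.40 on both arrays, weighed most in that sum. The part of these cells in the ratios of *Nos3* and *Nox4* was not tested.

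**Figure D5:**
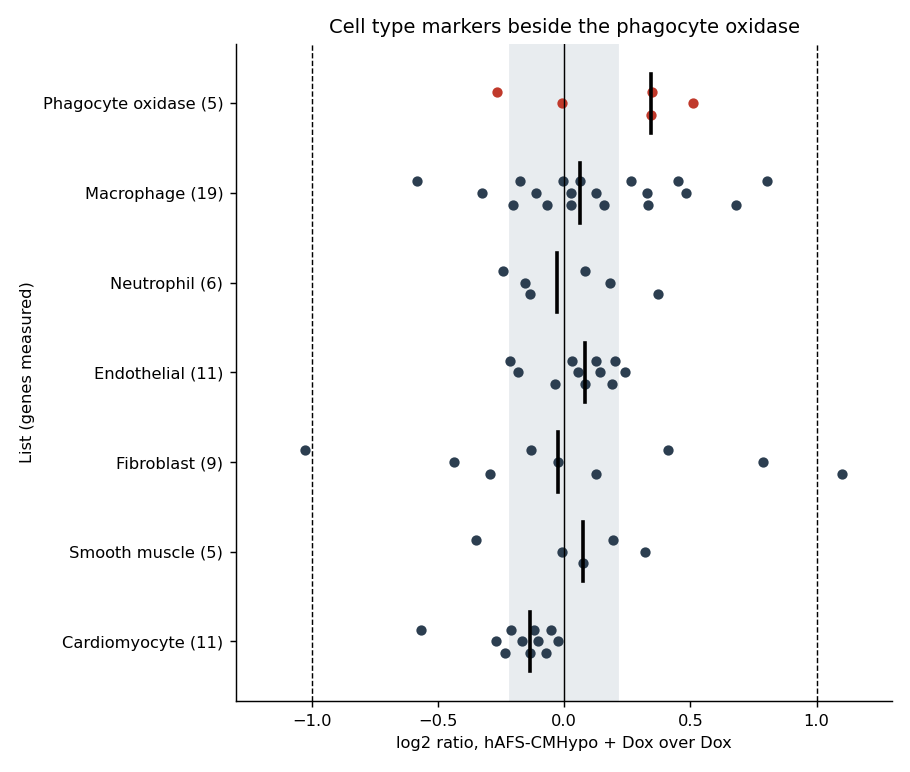
Log2 ratio of hAFS-CMHypo + Dox over Dox for the 5 phagocyte oxidase genes (red) and for markers of 6 cell types (dark), 1 point per gene, with a black bar at each median, a grey band for the SD of 0.21 and dashed lines at 2-fold. The marker medians lie between -0.14 and 0.083, the 11 cardiomyocyte points all lie left of 0, and the median of the oxidase genes is 0.34, or 0.13 with the mean of all probe sets of each gene.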

How the data were processed

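Each condition of mNVCM was hybridised to 1 Affymetrix mouse 3′ expression array. The authors made the deposited log2 values with RMA, which corrects background, quantile-normalizes and summarizes probes to probe sets; its software version and probe set definitions were not given in the sources used here. No source states the log base, and log2 was inferred from the span of the values, 2.37 to 15.05. No column of values was left unused. The number of arrays limits the precision, and no test across arrays could be made.

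Symbols came from the platform annotation, updated by Entrez ID with a RefSeq table on GRCm38.p6, which matched 34754 of 34958 probe sets with 1 gene. A gene took its probe set with the highest mean. Named in the text are all members. Genes named from a list were taken from its up to 4 with the largest absolute ratios whose higher array reached the median of all values, plus any past 2-fold. Not all of these are named. Genes marked as named after their values were seen were added to these. Genes of like pattern were not searched for, since 2 arrays give 1 ratio per gene. Members and lists were chosen with earlier results of these data known. Alternatives were other thresholds (1.5-fold, 3-fold), filters on signal, centring, lowess (span 0.3), probe set types and other values per gene. The counting steps were tested on simulated data. Tables were handled with pandas 2.3.3 and numpy 2.4.6 under Python 3.11.15, lowess with statsmodels 0.14.6, and plots with matplotlib 3.10.9.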

Additional observations from a re-analysis of the deposited data

How the results depend on the processing

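The sign of each of the 9 ratios was kept under every alternative that gave it a value. Thresholds and signal filters could not change a sign, and *Cyba*, *Ncf4*, *Nos2* and *Nos3* have 1 probe set each. *Cyba*, at -0.0066, showed almost no difference. No alternative read *Cybb* at 1436779_at alone, where its ratio was -0.082. *Nox4* ranged from 0.71 to 0.74 and *Cybb* from 0.23 to 0.43. *Ncf1* had 0.13 with the mean of all its probe sets, a shift larger than the SD between probe sets. The median of the 9 genes ranged from 0.063 to 0.13. At a threshold of 1.5-fold, 1 of the 9 genes, *Nox4*, was counted higher, as were 5 genes of the related pathways and 4 markers. Counted lower were 2 pathway genes and 1 marker. Of all genes, 2.32% passed that threshold upwards and 1.52% downwards. At 3-fold, 0 markers were counted higher and 0 lower, where 1 each (*Lum* and *Tcf21*) passed 2-fold, and 0 were counted lower with the mean of all probe sets. With the probe set of largest change, 1 pathway gene was higher and 1 lower by 2-fold. Neither centring nor lowess moved the median of all ratios by more than 0.0017. The filter at the median of all values removed *Ncf4*. Leaving out probe sets ending in _s_at, _x_at or _a_at removed *Nox4* and *Cyba*, which have no other; _a_at sets match several transcripts of 1 gene, and with only _s_at and _x_at left out, an alternative chosen after seeing the data, all 9 genes had a value. Low signal, under the median of all values on both arrays, limits 5 probe sets, which are that of *Ncf4*, 1 each of *Ncf1* and *Rac2*, and 2 of *Nos1*. No paired analysis was possible because each condition had 1 array.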
